A study of Homo sapiens with 4 samples.

Results

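The AP-1 transcription factor is a dimer of JUN and FOS family proteins, and the 8 genes described here encode its main subunits: JUN, JUNB and JUND, FOS, FOSB, FOSL1 and FOSL2, and the related factor ATF3. They are 8 of 19821 protein-coding genes placed on hg38 with RefSeq positions. The family was chosen by its known membership at a time when peaks of both libraries, among them the lipid-overload peak at FOSL2, had been seen, so its gene-end counts and heights stand as description, with no test. The series used HepG2, a human liver cancer cell line, and mapped γH2AX, the phosphorylated histone variant H2AX that marks DNA double-strand breaks. CUT&Tag, the assay, directs a transposase to antibody-bound chromatin so that nearby DNA is cut and tagged. Of 4 groups of 1 library each, the mock-treated (titled DMSO) and lipid-overloaded (titled PAOA) γH2AX libraries gave the 2 peak lists described here, and the 2 IgG control libraries were not analysed here. Each assay began with 100000 cells, and all groups share the cell line, medium and 14 PCR cycles. What PAOA stands for, its dose and its duration were not stated in the labels. With 1 library per group no difference has a replicate check, and how much of the signal comes from γH2AX, as opposed to open chromatin, was not tested.

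AP-1 subunits are basic leucine zipper proteins. JUN proteins pair with each other or with FOS proteins, while FOS proteins need a JUN partner, and the dimers bind short sites known as TRE (bound best by JUN and FOS) and CRE (bound also by ATF proteins). Most of these genes belong to the immediate early class, which cells switch on without new protein synthesis after growth signals, stress or DNA damage, and in liver JUN and FOS are known from regeneration, injury and cancer.

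Height is given as fragments over the summit, the highest point of a peak, recovered from the deposited fold and p value, with a 95% Poisson interval that covers counting error only. Total reads are unknown, but the genome-wide backgrounds place the lipid-overload library at 2.62 times the depth of the mock library. There were 8542 peaks in mock and 27296 in lipid overload, with median heights of 5 and 9 fragments and median widths of 180 and 196 bp.

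The promoters of the 4 genes whose lipid-overload summit fell within 250 bases before to 50 after the transcription start are shown, since they are the DNA beneath the peaks. Capitals mark the 21 bases centred on the lipid-overload summit. Sequences are those of RefSeq on GRCh38.p14, and RefSeq starts were found for 7 of the 8 genes, FOSL1 being the exception. The windows are chr1:58783998-58784297 (minus strand) for JUN, chr19:12791236-12791535 (plus strand) for JUNB, chr19:18281573-18281872 (minus strand) for JUND and chr2:28392608-28392907 (plus strand) for FOSL2, each written in the direction of transcription.
JUN: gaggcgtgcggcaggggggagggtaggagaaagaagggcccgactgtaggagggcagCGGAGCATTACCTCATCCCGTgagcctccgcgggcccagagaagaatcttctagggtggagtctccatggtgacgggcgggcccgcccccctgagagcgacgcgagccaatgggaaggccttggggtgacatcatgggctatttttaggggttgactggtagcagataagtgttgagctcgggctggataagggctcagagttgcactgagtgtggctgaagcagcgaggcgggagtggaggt
JUNB: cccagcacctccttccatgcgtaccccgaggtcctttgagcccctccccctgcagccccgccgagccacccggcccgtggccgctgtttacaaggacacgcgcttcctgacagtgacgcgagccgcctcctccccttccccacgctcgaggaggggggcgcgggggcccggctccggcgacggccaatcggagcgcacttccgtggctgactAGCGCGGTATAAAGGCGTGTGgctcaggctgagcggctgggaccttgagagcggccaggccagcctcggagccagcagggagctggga
JUND: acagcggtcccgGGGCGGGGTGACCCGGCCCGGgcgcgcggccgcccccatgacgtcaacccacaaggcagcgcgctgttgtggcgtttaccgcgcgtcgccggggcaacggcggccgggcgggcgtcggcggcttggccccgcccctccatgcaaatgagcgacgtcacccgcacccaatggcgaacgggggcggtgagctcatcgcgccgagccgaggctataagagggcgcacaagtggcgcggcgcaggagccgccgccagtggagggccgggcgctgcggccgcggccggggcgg
FOSL2: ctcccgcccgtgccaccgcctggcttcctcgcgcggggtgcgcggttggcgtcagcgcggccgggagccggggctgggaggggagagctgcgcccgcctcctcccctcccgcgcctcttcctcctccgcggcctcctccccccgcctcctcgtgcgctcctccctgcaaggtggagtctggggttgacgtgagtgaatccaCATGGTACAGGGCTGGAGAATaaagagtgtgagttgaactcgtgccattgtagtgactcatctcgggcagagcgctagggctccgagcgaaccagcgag

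A gene end, here the 1 kb either side of either end of the gene, held a mock peak at 3 members, JUN, JUND and FOSL1, and a lipid-overload peak at 6, these 3 with JUNB, FOS and FOSL2. Over all protein-coding genes a gene-end peak was listed for 13.4% in mock and 43.4% in lipid overload. The 3 members listed at an end in lipid overload and not in mock (JUNB, FOS, FOSL2) stand beside 31.4% of all genes, and the 3 listed in both beside 12.1%. With peaks inside the gene included, 4 of 8 members were listed in mock and 8 of 8 in lipid overload, ATF3 being added in both and FOSB in lipid overload, against 24.2% and 58% of all genes. Of the 7 members with a known start, 2 had a peak at the 5′ end in mock (JUN, JUND) and 5 in lipid overload (JUN, JUNB, JUND, FOS, FOSL2). Among 15813 protein-coding genes with a known start the shares were 14% and 45.5%. For ATF3 only 2 starts were found, while RefSeq lists 9 transcripts, so a peak at any other start was not counted here. No member with a known start had a peak within 1 kb of its 3′ end in either list, where 1.49% and 5.87% of all genes had one.

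The highest gene-end peaks of the members were tall for marked genes. Among the 8611 genes with such a peak in lipid overload, the median of the highest peak was 12 fragments and the upper quartile 18. FOSL2 had 47, JUN 33, JUND and FOSL1 31 each, JUNB 21 and FOS 17. The interval of FOSL2 (34.5 to 62.5) did not overlap those of JUNB (13.0 to 32.1) or FOS (9.90 to 27.2), and each neighbour in this order overlapped the next. In mock, JUND had 24 fragments, JUN 17 and FOSL1 14, where marked genes had a median of 7 and an upper quartile of 9. Lipid-overload gene-end peaks of the members were 149 to 662 bp wide (median 369), beside a median of 261 bp for all gene-end peaks of that list. Of these 7 peaks 4 were wider than that median, while those of JUNB (171 and 149 bp) and FOS (158 bp) were narrower. The FOS peak counted as a gene-end peak began 215 bp from the gene, while a JUNB peak 1016 bp away, the FOSB peak 1029 bp from an end and a FOS peak 1298 bp away fell just outside.

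**Figure D1:**
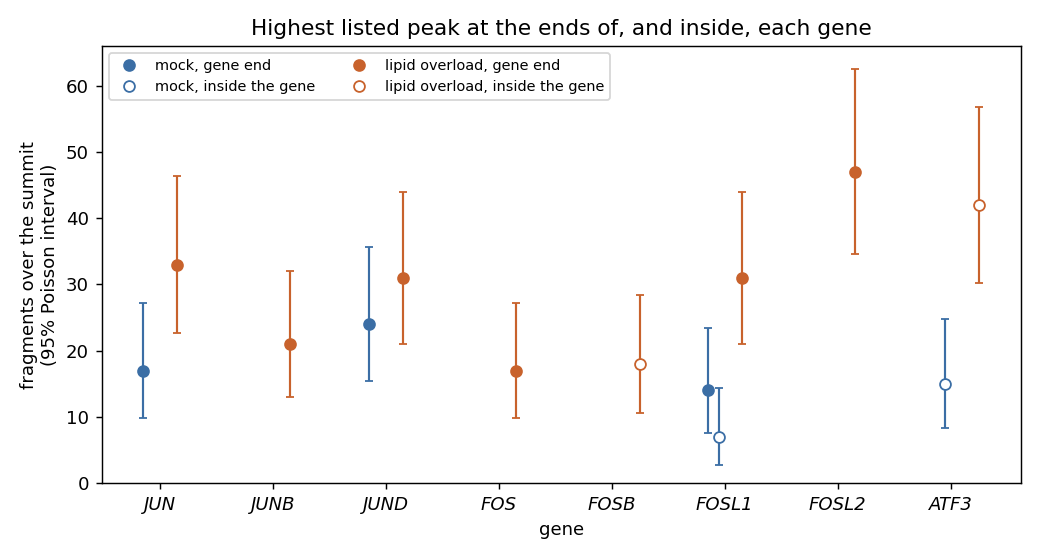
Fragments over the summit (y axis) of the highest gene-end peak (filled) and the highest peak inside the gene (open) for each of the 8 genes (x axis), in mock (blue) and lipid overload (orange), with 95% Poisson intervals. A missing symbol means that no peak was listed. FOSL2 stands highest at 47 in lipid overload with no mock peak. The gene-end intervals of both libraries overlap at JUN, JUND and FOSL1. Heights are not scaled for library depth.

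JUN, the founding and most potent JUN protein, lies on chromosome 1 at 58780791 to 58784047 on the minus strand. Its mock peak, 58783945 to 58784302, was 358 bp wide with 17 fragments (9.90 to 27.2), and its lipid-overload peak, 58783819 to 58784359, was 541 bp wide with 33 fragments (22.7 to 46.3). Both peaks cover all 300 bases of the promoter printed above, and their summits lay 142 and 183 bp before the start. The lipid-overload to mock ratio of heights was 1.94 (1.05 to 3.72), an interval that holds the depth ratio of 2.62. The surroundings of JUN were sparse: apart from the promoter, the 50 kb on either side held 1 mock peak of 5 fragments, 30.5 kb before the start within the noncoding RNA gene JUN-DT, and 1 lipid-overload peak of 5 fragments, 28.6 kb after it.

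JUND, the JUN protein made most steadily in resting cells, lies on chromosome 19 at 18279694 to 18281622, minus strand. It carried the tallest and widest mock peak of the family, 699 bp with 24 fragments (15.4 to 35.7), and 99.7% of the mock list was narrower. In lipid overload the peak was 662 bp wide with 31 fragments (21.1 to 44.0). The 2 values differ by a ratio of 1.29 (0.734 to 2.30), and this interval lies below the depth ratio. The authors' fold was 10.4 in mock and 7.31 in lipid overload. Both peaks cover the whole printed promoter, with summits 184 and 228 bp before the start, and the lipid-overload peak also overlaps the microRNA gene MIR3188. A flanking site 10.4 kb before the start matched the promoter in lipid overload, at 32 fragments (21.9 to 45.2), where mock had 15 (8.40 to 24.7).

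JUNB, which often opposes JUN in growth control, lies on chromosome 19 at 12791486 to 12793315, plus strand. No mock peak was listed in or within 50 kb of it, whereas lipid overload gave 10 peaks. A summit of 21 fragments (13.0 to 32.1) lay 28 bp before the start, in the capitals of the printed promoter, and a second peak of 15 fragments lay 340 bp after it. The highest peak of the region, 28 fragments (18.6 to 40.5) and 553 bp wide, lay 1.1 kb before the start. HOOK2, a gene for a microtubule linker protein, overlaps JUNB by 865 bp and holds all 3 of these peaks, so which gene they belong to cannot be told apart. Of all coding genes, 48.0% had no mock peak within 50 kb, and 56 genes (0.283%) also had at least 10 lipid-overload peaks there, a combination singled out after the values were seen.

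FOS, the prototype immediate early gene, lies on chromosome 14 at 75278828 to 75282230, plus strand. It had no mock peak at its ends. In lipid overload a peak of 158 bp and 17 fragments (9.90 to 27.2) had its summit 271 bp before the start, and 2 further peaks of 13 and 19 fragments lay 1.4 and 1.8 kb before it. The tallest peaks of the locus stood apart from the gene. A site 15.2 kb downstream of the start, at the noncoding RNA LINC01220, stood at 15 fragments in the mock library (8.40 to 24.7) beside 38 after lipid overload (26.9 to 52.2), with summits 4 bp apart. A site 19.6 kb before the start, outside any listed gene, had 34 fragments in lipid overload (23.5 to 47.5) in a peak 597 bp wide, with no mock peak overlapping it.

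FOSB, a subunit with several splice forms, lies on chromosome 19 at 45467996 to 45475179, plus strand, and no peak was listed at its 5′ end in either library. A lipid-overload peak of 18 fragments (10.7 to 28.4) lay inside the gene, 6 kb from the start. Each of the 5 mock peaks within 50 kb overlapped a lipid-overload peak. The highest, 12.2 kb before the start and outside any listed gene, stood at 14 fragments in the mock library and 36 after lipid overload (25.2 to 49.8). At the end of RTN2, a reticulon gene, the mock peak had 7 fragments (2.81 to 14.4) and the lipid-overload peak 33 (22.7 to 46.3), the largest ratio of heights around any member, 4.71 (2.05 to 12.6). Inside ERCC1, a DNA excision repair gene, the highest shared site had 12 fragments in mock and 24 after lipid overload.

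FOSL1, which encodes FRA1, lies on chromosome 11 at 65892049 to 65900545 in the most gene-rich of these neighbourhoods, with 10 other coding genes within 50 kb. At its end of higher coordinate mock had a peak of 262 bp and 14 fragments (7.65 to 23.5), and lipid overload a peak of 369 bp and 31 fragments (21.1 to 44.0). The ratio was 2.21 (1.14 to 4.50). A mock peak of 7 fragments inside the gene had no counterpart in lipid overload. Of the 12 lipid-overload peaks around FOSL1, 8 lay at the ends of other coding genes, among them EFEMP2 with 25 fragments, where mock had 8.

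FOSL2, which encodes FRA2, lies on chromosome 2 at 28392858 to 28417317, plus strand, with no other coding gene within 50 kb. Its start held the tallest peak of the family, at 28392537 to 28392953, 417 bp wide and with 47 fragments (34.5 to 62.5), and 98.96% of the lipid-overload list had fewer. The summit lay 39 bp before the start, and the peak covers the whole printed promoter together with part of the antisense RNA FOSL2-AS1. No mock peak was listed there. The single site around FOSL2 listed in both libraries, 15.5 kb before the start, had 8 fragments in mock and 16 after lipid overload, a ratio of 2.00 (0.808 to 5.40).

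ATF3, a stress-induced factor that pairs with JUN proteins, spans 55371 bp of chromosome 1, 212565407 to 212620777, plus strand. Neither of the 2 starts found for it had a peak within 1 kb. Inside the gene, 43.2 kb after the first start and 6.4 kb before the other, a mock peak of 463 bp and 15 fragments (8.40 to 24.7) coincided with a lipid-overload peak of 660 bp and 42 fragments (30.3 to 56.8), with summits 12 bp apart. Among the lipid-overload peaks within 50 kb of the 8 genes only that of FOSL2 was taller, and the ratio was 2.80 (1.52 to 5.44). RefSeq lists 9 transcripts for ATF3, and whether the site coincides with another start was not tested. A weaker peak of 10 fragments lay 1.9 kb after the first start in lipid overload.

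**Figure D2:**
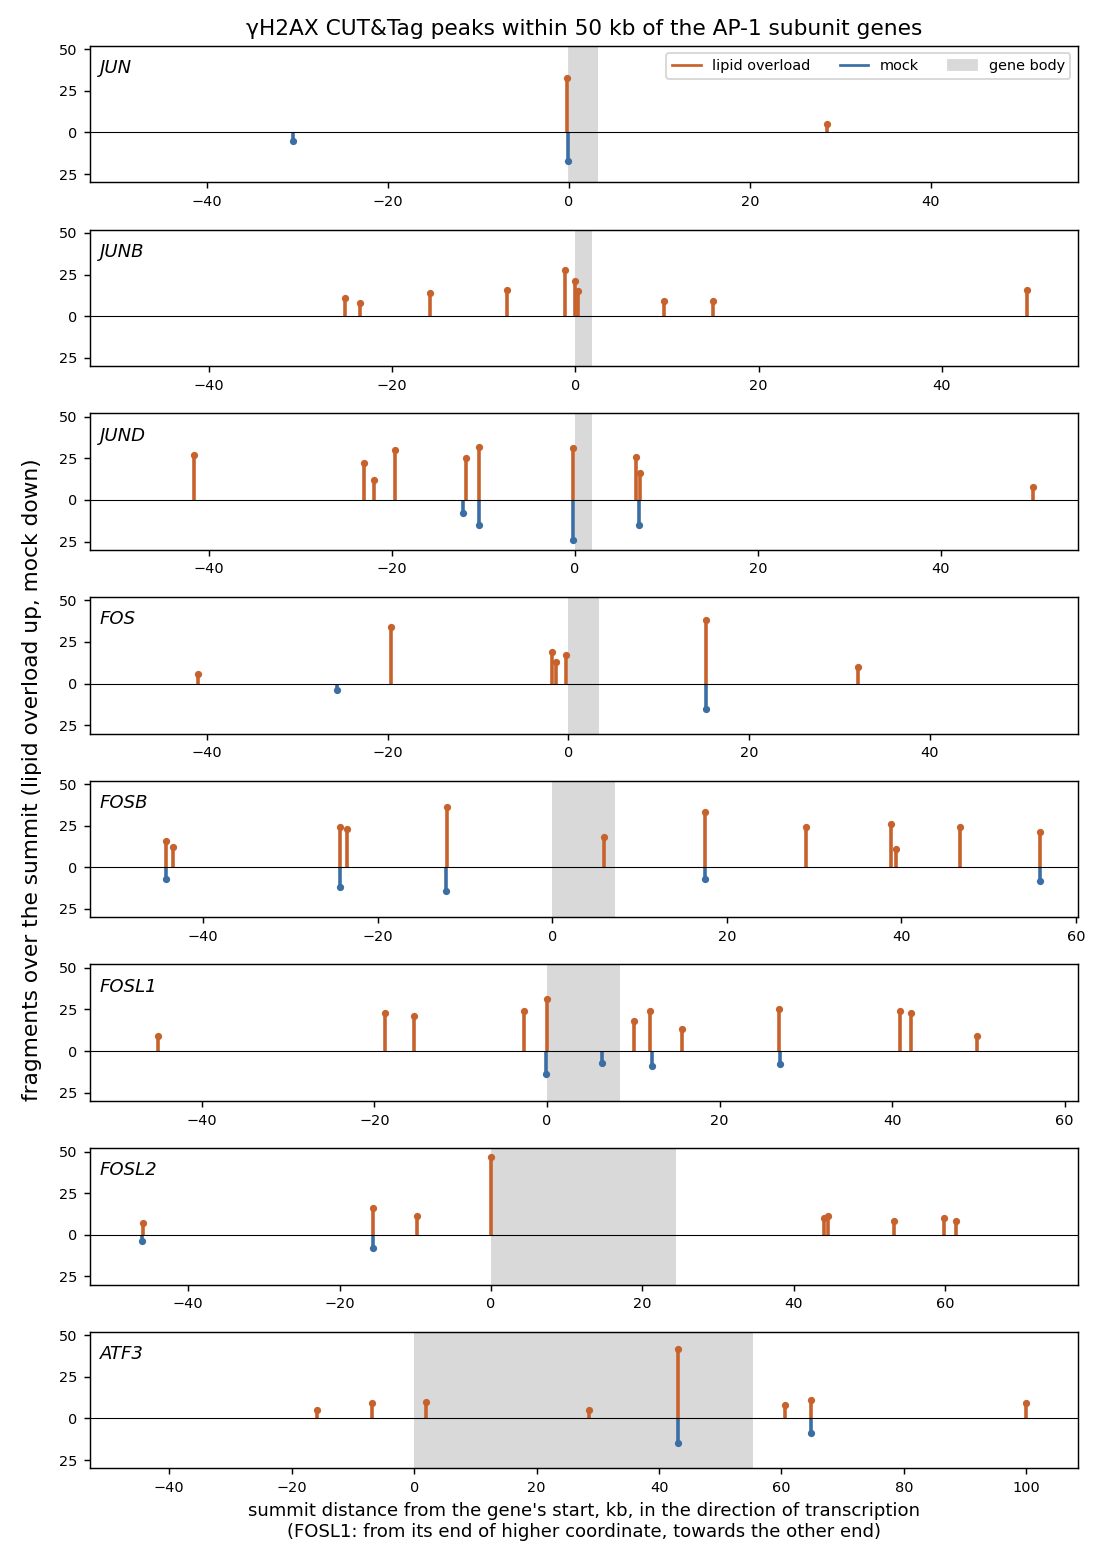
Each panel plots the listed peaks within 50 kb of a gene by the distance of the summit from its start (x axis, kb) and the fragments over the summit (y axis), lipid overload upward in orange and mock downward in blue, with the gene body shaded. JUN shows a single tall site in both libraries, JUNB lipid-overload peaks alone, and FOS and FOSB their tallest peaks outside the gene.

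Within 50 kb of the 8 genes, gene included, there were 21 mock and 70 lipid-overload peaks. A member had between 0 and 5 mock peaks (median 2) and between 2 and 12 lipid-overload peaks (median 9.5), while all coding genes had medians of 1 and 2, with upper quartiles of 1 and 5. Per 100 kb of window the members' medians were 1.94 and 8.52 and those of all coding genes 0.313 and 1.71. Coding genes within 50 kb of a member ranged from 0 at JUN, FOS and FOSL2 to 10 at FOSL1 (median 2.5, against 2 over all genes). The 3 members without a coding neighbour had 2 (JUN), 7 (FOS) and 9 (FOSL2) lipid-overload peaks, and the 5 with neighbours had 8 to 12. The part of neighbouring genes in these counts was not tested. The tallest lipid-overload peak of the window lay at a gene end for 3 members (JUN, FOSL1, FOSL2), inside the gene for ATF3, and outside it for the other 4. Of the 59 lipid-overload peaks outside the genes and their ends, 18 lay at the ends of other coding genes, with a median of 23 fragments, against 16 for all 59.

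Of the 21 mock peaks around the members, 17 (81.0%) overlapped a lipid-overload peak, compared with 45.8% of the whole mock list. Of the 70 lipid-overload peaks, 17 (24.3%) overlapped a mock peak, compared with 14.3% of the whole list. Member peaks were also taller: their median was 9 fragments beside 5 for the mock list, and 16 beside 9 for lipid overload. Gene-end peaks of the whole mock list overlapped in 1840 out of 2276 cases, those of lipid overload in 1846 out of 8463. Among the members' mock peaks 3 lay at a gene end, all overlapping, and 16 in flanks, with 13 overlapping. The part of height and place in these shares was not tested. The 4 mock peaks without a counterpart had 4 to 7 fragments. At the 17 shared sites the ratio of heights ran from 1.07 to 4.71 with a median of 2.29, and 11 ratios lay below the depth ratio. Over all 3914 shared sites the median was 2.23 and 63.5% lay below it. The interval held the depth ratio at 15 of the 17 sites. At the other 2, both at JUND, it lay below: the promoter, and a site 7.1 kb downstream at an end of IQCN with 15 mock and 16 lipid-overload fragments (ratio 1.07, 0.494 to 2.32). Both of these intervals also end below 2.39. Beside the IQCN site a separate lipid-overload peak of 26 fragments, 6.7 kb downstream of the JUND start, overlapped no mock peak. Over all shared sites the summit interval lay below the depth ratio at 3.91% and above it at 0.971%, and 36.5% of the ratios themselves lay above it. Among the 131 shared gene-end sites with 14 to 24 mock fragments, the range of JUN, JUND and FOSL1, 5.34% had an interval below.

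The local background of each peak gives a broader reading, since it counts fragment ends over the 10 kb around the summit and so rests on more fragments. Each fragment has both its ends counted, so intervals were taken on the number of fragments. On this scale the 17 ratios ran from 1.58 to 4.19 with a median of 3.18, beside 3.03 over all shared sites, and 13 lay above the depth ratio, as did 69.3% of all shared sites. At the JUN promoter the 10 kb held 173 fragment ends in mock and 368 in lipid overload, a ratio of 2.13 (1.65 to 2.80). JUND had 204 and 543, a ratio of 2.66 (2.12 to 3.38). FOSL1 had 129 and 541, a ratio of 4.19 (3.16 to 5.53), which lies above the depth ratio and does not overlap the interval of JUN. For those 131 gene-end sites of like mock height the median ratio was 3.27 (quartiles 2.90 and 3.85). At JUND the interval of the 10 kb ratio thus held the depth ratio, and that of the summit ratio did not. The interval lay above the depth ratio at 3 sites, all around FOSL1, and below it at the IQCN site (1.58, 1.28 to 1.94). Over all 3771 shared sites with a local background to compare, 17.6% lay above in this way and 5.49% below. The 3 FOSL1 sites share a neighbourhood, since all lie within 50 kb of that gene.

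**Figure D3:**
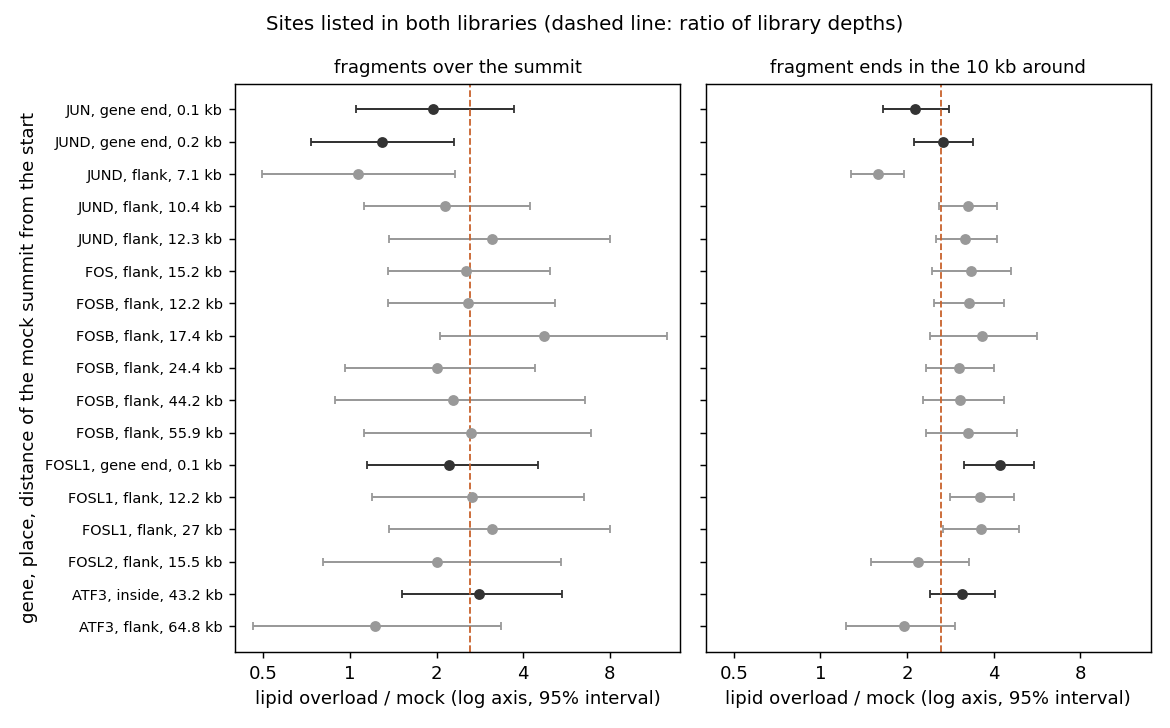
Ratio of lipid overload to mock (x axis, log scale) at the 17 shared sites around the genes (y axis), for fragments over the summit (left) and fragment ends in 10 kb (right), with 95% intervals and the depth ratio of 2.62 as a dashed line. Dark points are at gene ends or inside a gene and grey points in the flanks. The JUND promoter lies left of the line at the summit, and FOSL1 lies right of it over 10 kb.

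For the 53 lipid-overload peaks without an overlapping mock peak, the height divided by 2.62 was set beside the number of fragments a mock peak needed. That number came from the lowest p value in the mock list and the local background divided by 2.39, the ratio of genome backgrounds. Dividing the heights by 2.39 as well would raise each of them, and the counts under that factor were not taken. The FOSL2 promoter came to 17.9 fragments at mock depth (13.2 to 23.8), with 7 needed. This peak was known when the family was chosen, so its place here is a description that supports nothing further. The JUNB start had 8.00 (4.95 to 12.2) with 8 needed, and FOS 6.48 (3.77 to 10.4) with 8 needed, and both intervals held the number needed. With these factors, 6 of the 53 sites had intervals above the number needed, 46 held it and 1 lay below. The intervals cover the counting error of the lipid-overload height alone, and leave out that of the mock library. The sites were also picked for being listed in lipid overload and not in mock. An interval above the number needed therefore does not show that mock should have listed the site. Some sites lay close to the limit. The site below, 21.9 kb before JUND, had an interval up to 7.99 with 8 needed. A site 6.7 kb after the JUND start had an interval from 6.47 with 7 needed. Over all 23400 lipid-overload peaks without an overlapping mock peak, 3.19% had intervals above the number needed and 0.65% below, and among the 6617 of them at gene ends 6.8% lay above. The other 5 above it lay in flanks: the site 19.6 kb before FOS (13.0, with 6 needed), sites 19.6 and 41.6 kb before JUND with 11.4 and 10.3, the latter at LSM4, a gene of RNA processing, and sites 38.9 and 46.7 kb after the start of FOSB with 9.91 and 9.15, at VASP, which encodes an actin regulator.

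**Figure D4:**
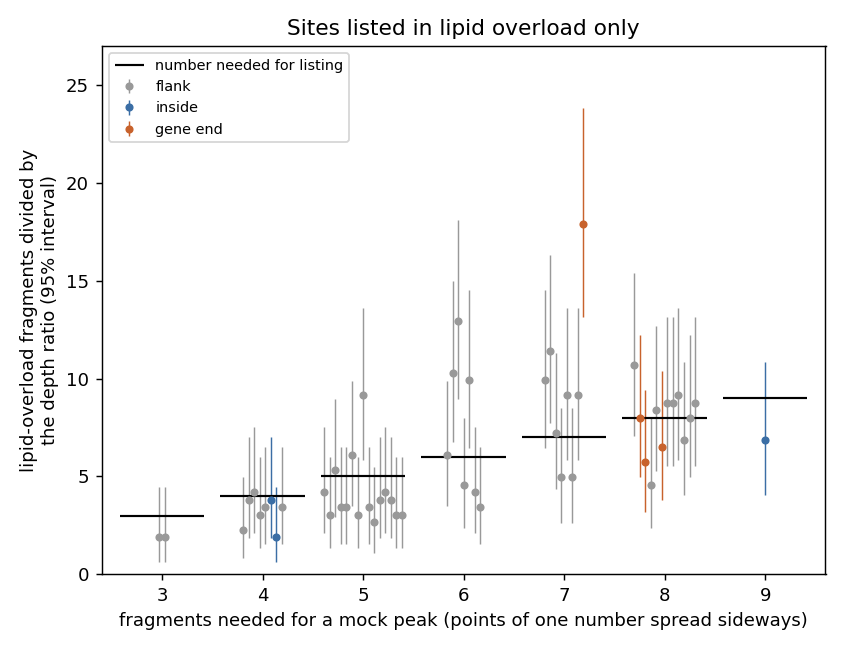
For the 53 sites listed in lipid overload and not in mock, the lipid-overload fragments divided by the depth ratio with 95% intervals (y axis) against the fragments a mock peak would have needed (x axis, and black bars at the same height). The gene-end point at 17.9 is FOSL2, and the JUNB and FOS gene-end intervals cross their bars.

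Promoter sequence was compared over 35116 promoters of 300 bases. The TRE letters TGACTCA, searched on both strands, occurred in 4.95% of all promoters and in that of FOSL2 among the members, where they begin 4 bases after the start. The CRE letters TGACGTCA, their own reverse complement, occurred in 1.85% of all and in that of JUND, beginning 200 bases before the start, between the 2 summits. The serum response element had no match in the members' windows and one in 1.29% of all. The windows begin 250 bases before the start, so elements further upstream were not searched. At FOS only 36 bases of the 158 bp lipid-overload peak fall in the window. CpG pairs numbered 16 in the JUN promoter, 29 in those of JUNB and FOSL2, 30 in FOS and 49 in JUND. FOSB, with no promoter peak, had 23, and the promoters at the 2 starts found for ATF3 had 4 and 1. RefSeq lists 9 ATF3 transcripts, and promoters at any other start, such as one near the tall site inside the gene, were not examined. The median was 26 over 10550 promoters of coding genes with a 5′ end peak in lipid overload and 12 over 11606 of those without. All promoters of a gene were counted alike, also where the peak lay at only 1 of its starts. CpG pairs were thus more numerous at genes with a listed 5′ end peak. Among the members, JUN, with a peak, had fewer than FOSB, without one. The part of CpG pairs in the result was not tested.

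Other genes of the AP-1 pathway were counted from lists made by function. Of 15 partners and related leucine zipper genes, 3 were marked at a gene end in mock and 9 in lipid overload. ATF7 had 13 mock fragments (6.92 to 22.2) and 32 lipid-overload fragments (21.9 to 45.2), ATF2 had 9 and 20, and MAFA had 20 in lipid overload alone. Of 17 kinases and transcription factors upstream of AP-1, 2 were listed in mock and 12 in lipid overload. ELK1 and ELK4, partners of serum response factor, had 22 (13.8 to 33.3) and 17 fragments in lipid overload with no mock peak. Of 16 known AP-1 target genes, 2 were listed in mock and 5 in lipid overload, the highest being TIMP1, a metalloproteinase inhibitor, and FTH1, the ferritin heavy chain, with 15 fragments each. FTH1 also had 8 in mock. The target list thus held no larger a share of marked genes than the 13.4% and 43.4% of all coding genes, and MMP1, MMP3, MMP9, IL6, CXCL8 and CCL2 had no gene-end peak in either library. Of 8 hepatocyte marker genes, ALB and HNF4A among them, 0 had a gene-end peak in either list, and DNA peaks give no check of cell identity.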

How the data were processed

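γH2AX CUT&Tag peak lists of 1 mock and 1 lipid-overload HepG2 library were used. The submitters' processing notes name hg38, BWA, FastQC, deepTools and MACS2 2.1.2. How these were set, and whether IgG served as control, is not given in the sources used here. Per peak, the authors' deposited values are a score, a linear fold over background, −log10 of p and of q, and the place of the summit. Members and gene lists were chosen with earlier results of these data known.

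Fold and −log10 p were solved together for whole fragments and local background under the MACS2 formulas. Whole numbers came out for 100% of the peaks of each library (tolerance 0.0001 on the log10 p scale), and the step was tested on simulated data. Backgrounds of peaks under 60 fragments were whole multiples of 0.00684 (mock) and 0.00622 (lipid overload), giving mean fragments of 137 and 124 bp and counts of fragment ends in 10 kb. The genome backgrounds, 0.121 and 0.289, divided by fragment length, gave the depth ratio. Intervals are exact Poisson, and exact conditional binomial for ratios. Overlap means at least 1 bp. RefSeq positions of GRCh38.p14 were used, and 679 genes on other scaffolds were set aside. Peaks around the members were named with neighbouring genes where shared or among the 3 tallest, and list genes by the 2 tallest gene-end peaks, ties included. ERCC1, IQCN, LSM4, JUN-DT and the list genes without peaks were named after their values were seen. No test was run. Python 3.11.15, numpy 2.4.6, pandas 2.3.3 and scipy 1.17.1 were used. The alternatives concerned the peak threshold, list length, merging, window sizes and, for height ratios, the fold and the depth ratio.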

Additional observations from a re-analysis of the deposited data

How the results depend on the processing

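With 1 library per group, every value rests on 1 library, and fragment numbers of 4 to 47 limit what could be detected. The 3 members marked at a gene end in mock were JUN, JUND and FOSL1 under each alternative run. Peaks with −log10 q of at least 5 left 9 mock and 43 lipid-overload peaks within 50 kb of the members, with a lipid-overload median of 5 per member. FOS lost its gene-end peak there, and 6 members kept a lipid-overload peak in the gene or at its ends. A fold of at least 5 left 43 lipid-overload peaks (median 5), 5 members with a lipid-overload peak in the gene or at its ends, and 1, FOSL2, marked at a gene end in lipid overload only, since JUNB and FOS lost their gene-end peaks. Cutting the lipid-overload list to the length of the mock list left 40 peaks and a median of 4.5, and FOS again lost its gene-end peak. With gene ends of 3 kb, 5 members were marked in lipid overload only, since FOSB and ATF3 joined. A window of 100 kb held 34 mock peaks. By construction each of the settings named above keeps fewer peaks or a wider window. The highest gene-end folds of FOS (4.45) and JUNB (4.61) lay not far below 5. The cause of these shifts was not tested. Among 162 further values for single genes and gene lists, 141 stayed within their limits and 21 did not. The height ratio divided by depth was 0.740 for JUN, and the ratio of the authors' folds, which already carry the background, was 1.25. For JUND these were 0.492 and 0.700, and for FOSL1 0.844 and 0.920, below 1 in each case. Divided by the ratio of genome backgrounds instead of depth, the height ratio was 0.813 for JUN, 0.541 for JUND and 0.927 for FOSL1.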
